A study of Mus musculus with 22 samples.

Results

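Nuclear receptors are transcription factors that bind DNA through zinc fingers and, in most cases, are switched by small lipophilic ligands such as steroids, retinoids, oxysterols, bile acids and thyroid hormone. Many act as heterodimers with retinoid X receptors, and unliganded receptors can hold corepressors at their target genes until ligand exchanges them for coactivators. In liver macrophages they couple lipid and hormone signals to gene expression, and liver X receptors are known as regulators of Kupffer cell identity. The genes that encode these receptors are described here by the acetylation of lysine 27 of histone H3 (H3K27ac) at the regulatory regions assigned to them. This histone mark is found at active promoters and enhancers, so it reports the state of the receptor genes' own regulatory DNA and not binding by the receptors.

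The members were 39 nuclear receptor genes, and every window whose nearest annotated gene was one of them was taken. This gave 378 of 96381 windows, each 1000 bp wide, at 33 of the genes. *Nr2e3*, *Nr2f2*, *Nr5a1*, *Nr5a2*, *Esrrb* and *Hnf4g* had no window. *Nr1h3*, which encodes the liver X receptor LXRα, was not a member and is not described here. Kupffer cells, which are liver-resident macrophages, were sorted from perfused livers of male control mice of 3 inbred strains (A/J, BALB/cJ and C57BL/6J) with 3 H3K27ac ChIP–seq libraries per strain, and from control CB6F1/J mice, the progeny of BALB/cJ females and C57BL/6J males, with 3 libraries in which reads covering a strain variant were assigned to an allele. Digestion was done with flavopiridol, an inhibitor of transcription elongation, in every group. Because the strains differ at many loci and in their *trans* environment at once, while both alleles of an F1 hybrid share 1 nucleus, the first design asks where the mark differs by strain and the second whether the difference is carried in *cis*. The labels number the libraries but do not tie each to 1 animal, so the p-values measure the spread between these libraries.

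Of the 378 windows, 250 (66.1%) had a mean normalized count above 16 over the 9 strain libraries and were tested, against 62.7% of all windows. Normalized counts are the counts of a window scaled to a common library size, and since all windows are 1000 bp wide their levels can be compared between genes. The windows lay more often in introns than windows in general (56.1% against 43.6%) and less often in intergenic sequence (25.1% against 34.5%), as a description. Members overlap in part, since 125 of the 378 windows shared bases with the previous one, so neighbouring windows do not count as separate evidence. The strain libraries held 2291426 to 12980348 counts over all windows, the 7 input libraries 583518 to 1916588, and the F1 allele columns 182654 to 400681. Windows at the start sites of 15 of 16 Kupffer cell markers summed to normalized counts of 4989 to 5940 in A/J, 5198 to 5667 in BALB/cJ and 5318 to 8507 in C57BL/6J. Of 16 hepatocyte markers, 2 had a start-site window, with sums of 371 to 412, 457 to 559 and 312 to 374 in the same order. Of 8 B cell markers, 1 had a window, at 0 to 9.31 in all libraries. The 4 of 12 monocyte and neutrophil markers with a window summed to 557 to 774 in A/J, 554 to 733 in BALB/cJ and 710 to 1310 in C57BL/6J, and their part in the differences below was not tested. The 7 of 14 sinusoidal endothelial markers with a start-site window summed to 97.7 to 125 in A/J, 134 to 189 in BALB/cJ and 62.9 to 125 in C57BL/6J, so BALB/cJ was above every other library. The members did not go the same way. *Bmp2* was highest in BALB/cJ (means of 58.5 and 42.2, against 13.5 and 14.8 in A/J and 17.7 and 12.6 in C57BL/6J), as were *Lyve1* and *Tek*. *Dnase1l3* was highest in A/J (54.7, 36.4 and 28.6), as were *Egfl7* and *Kdr*, and *Fcgr2b* in C57BL/6J. The 2 of 12 T and NK cell markers summed to 29.8 to 35.6, 16 to 26.3 and 9.45 to 21.3 in the same order, with A/J highest. That order came from *Cd4* (means of 30.1, 19.4 and 10), while *Tcf7* was highest in C57BL/6J (1.96, 0.768 and 5.66). Stellate cell markers (4 of 13) summed to 540 to 736, 710 to 883 and 591 to 908, and dendritic cell markers (2 of 8) to 523 to 807, 611 to 715 and 496 to 617. In the hepatocyte (*Trf*), monocyte and neutrophil (*Csf3r*), stellate cell (*Hgf*) and dendritic cell (*Batf3*) lists, most of the sum came from the 1 gene named. The part of these lists in the differences was not tested either.

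The windows that carried the largest strain differences lay away from promoters, and the central 300 bases of the 5 with the lowest adjusted p are shown because the results below turn on them. The letters are the C57BL/6J reference (RefSeq, GRCm38.p6, the build called mm10, + strand), and capitals mark matches to the motifs searched on both strands, which were AGGTCA (the half-site bound by many nuclear receptors), GAGGAA (the core bound by PU.1, a macrophage lineage factor), TGANTCA (AP-1) and the glucocorticoid receptor palindrome.
Nr2c1, 54281 bases upstream, chr10:94093501-94093800: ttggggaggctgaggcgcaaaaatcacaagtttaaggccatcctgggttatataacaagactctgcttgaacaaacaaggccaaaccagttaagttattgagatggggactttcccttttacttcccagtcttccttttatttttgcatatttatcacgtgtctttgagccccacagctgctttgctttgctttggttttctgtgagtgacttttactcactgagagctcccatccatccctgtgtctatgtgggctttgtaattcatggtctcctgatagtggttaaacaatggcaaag
Nr1h4, 14366 bases upstream, chr10:89547839-89548138: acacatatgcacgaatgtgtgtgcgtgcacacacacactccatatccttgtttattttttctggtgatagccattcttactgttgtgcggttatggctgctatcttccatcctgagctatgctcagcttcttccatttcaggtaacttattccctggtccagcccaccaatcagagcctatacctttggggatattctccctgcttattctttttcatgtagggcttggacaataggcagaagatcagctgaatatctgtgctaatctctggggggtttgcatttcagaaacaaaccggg
Nr4a1, 14061 bases upstream, chr15:101252636-101252935: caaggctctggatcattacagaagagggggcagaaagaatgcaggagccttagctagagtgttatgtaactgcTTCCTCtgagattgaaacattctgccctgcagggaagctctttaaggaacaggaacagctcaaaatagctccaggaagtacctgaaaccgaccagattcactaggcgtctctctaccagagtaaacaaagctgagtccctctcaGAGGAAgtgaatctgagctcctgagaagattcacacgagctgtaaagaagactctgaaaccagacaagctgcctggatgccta
Nr4a1, 19485 bases upstream, chr15:101247212-101247511: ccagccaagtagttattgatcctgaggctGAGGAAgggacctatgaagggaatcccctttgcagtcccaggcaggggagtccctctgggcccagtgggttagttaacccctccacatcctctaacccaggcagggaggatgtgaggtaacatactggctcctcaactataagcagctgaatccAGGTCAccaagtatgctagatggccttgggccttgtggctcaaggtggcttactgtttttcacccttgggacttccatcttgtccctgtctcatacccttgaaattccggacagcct
Nr4a2, 1765 bases upstream, chr2:57116654-57116953: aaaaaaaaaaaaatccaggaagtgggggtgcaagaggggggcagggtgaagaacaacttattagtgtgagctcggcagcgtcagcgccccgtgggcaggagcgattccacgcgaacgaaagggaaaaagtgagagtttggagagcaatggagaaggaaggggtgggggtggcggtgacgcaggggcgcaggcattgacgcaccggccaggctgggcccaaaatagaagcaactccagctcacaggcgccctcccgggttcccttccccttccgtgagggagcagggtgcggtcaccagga

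The window 14061 bases upstream of *Nr4a1* held GAGGAA in 2 places, and the window 19485 bases upstream held AGGTCA and GAGGAA once each. The other 3 sequences held none of the 4 motifs in these 300 bases. No matches overlapped. Among the central 300 bases of 96228 windows, AGGTCA occurred in 20.4%, GAGGAA in 43.4%, TGANTCA in 17.1% and the glucocorticoid receptor palindrome in 0.603%, and among the 378 nuclear receptor windows in 20.6%, 45.0%, 16.9% and 0.529%. These matches are letters in a reference genome. Strain variants within them were not analysed here.

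Strain differences at these nuclear receptor genes were few. In A/J against BALB/cJ, 1 of the 250 tested windows (0.4%) passed an adjusted p of 0.05 with a change of over 2-fold, lower in A/J, where 3.63% of all 60387 tested windows did so. In A/J against C57BL/6J, 1 window was higher and 3 were lower in A/J (1.6%, against 7.09% of all windows). In BALB/cJ against C57BL/6J, 1 was higher and 6 were lower in BALB/cJ (2.8%, against 8.56%). Together 9 windows at 6 genes (*Nr2c1*, *Nr1h4*, *Nr4a1*, *Nr4a2*, *Nr3c1* and *Thrb*) passed in at least 1 comparison (3.6%, against 12.3%). The tests were edgeR's quasi-likelihood tests with Benjamini–Hochberg adjustment over all windows. The median log2 fold change over the 250 windows was 0.02 for A/J over BALB/cJ, 0.10 for A/J over C57BL/6J and 0.04 for BALB/cJ over C57BL/6J, beside medians of 0.01, −0.01 and −0.01 over all windows. The 95% interval of the fold change lay within 2-fold in both directions at 182, 152 and 156 of the 250 windows, so at the remaining windows a 2-fold difference was not excluded at this depth. The comparisons share libraries and are not independent of each other. With replicate as a block the counts were 4 (1 higher and 3 lower), 5 and 10, beside 5.39%, 8.91% and 10.5% of all windows.

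**Figure D1:**
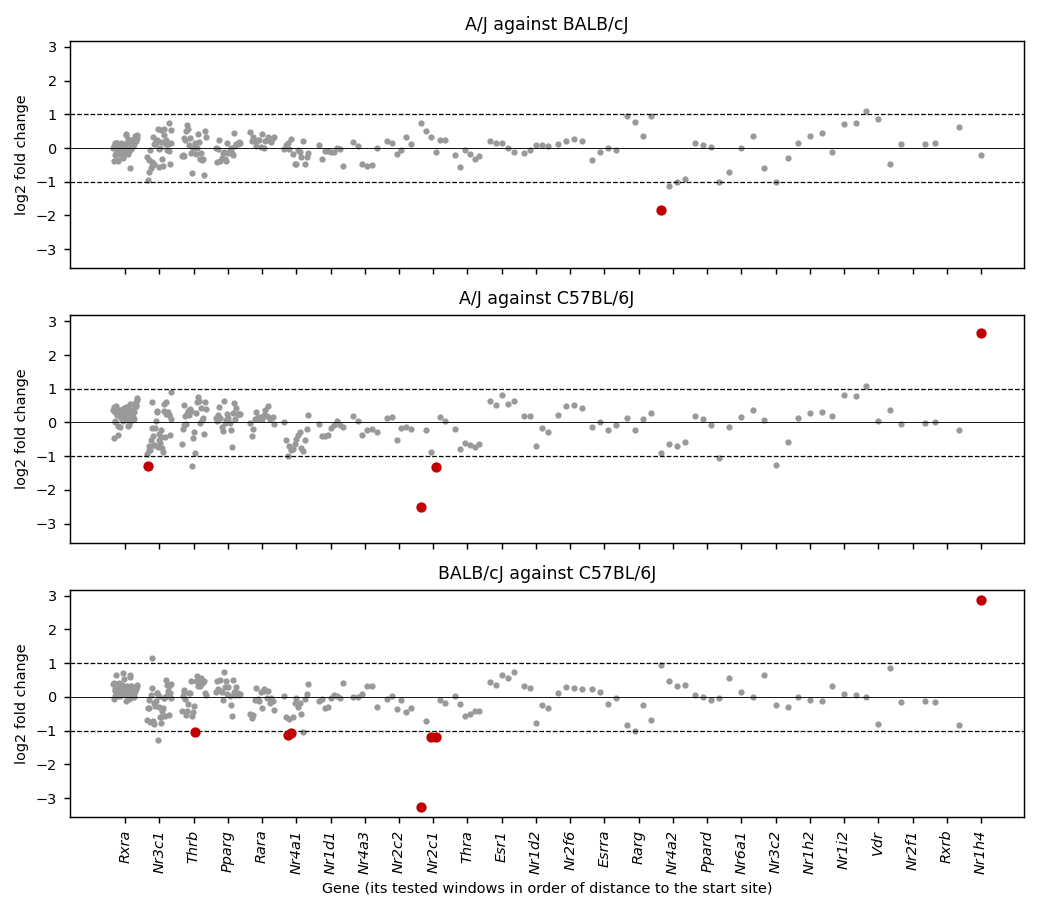
Log2 fold change of each of the 250 tested nuclear receptor windows, grouped by gene on the horizontal axis and in order of distance to the start site, in 3 panels for the 3 strain comparisons. Most of the 250 windows lie between the dashed lines that mark 2-fold, and the called windows (larger red points) are at *Nr2c1*, *Nr1h4*, *Nr4a1*, *Nr4a2*, *Nr3c1* and *Thrb*.

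All called windows were distal or intronic. Of the 36 tested windows annotated as promoters, 0 passed in any comparison, against 5.27% of 12556 promoter windows in the whole table. The unadjusted p was under 0.05 in at least 1 comparison at 11 of the 36 with edgeR, DESeq2 called 0 of them, and edgeR with the replicate block called 1. Over all 250 windows the unadjusted p was under 0.05 at 16, 47 and 30 in the 3 comparisons. Of 138 intronic windows 5 passed (3.62%, against 12.9% of all intronic windows), and of 57 intergenic windows 4 passed (7.02%, against 16.8%). RefSeq lists further start sites that the files do not use as the reference point, and of 70 tested windows within 1000 bases of any RefSeq start of their gene, 0 passed with edgeR or DESeq2 and 2 with the replicate block, with an unadjusted p under 0.05 at 19.

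Promoter acetylation ranked the receptor genes widely. A window within 1000 bases of the start site existed for 29 genes, of which 21 were tested, and log2 fold changes at these ran from −0.59 to 0.77 for A/J over BALB/cJ, from −0.73 to 0.63 for A/J over C57BL/6J and from −1.29 to 0.66 for BALB/cJ over C57BL/6J. The lowest adjusted p in each comparison was 0.214, 0.0708 and 0.0335 (edgeR), and the 95% interval lay within 2-fold at 18, 18 and 17 of the 21. With the replicate block, 2 of the 21 passed in BALB/cJ against C57BL/6J, the *Rarg* and *Nr3c1* windows described below.

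**Figure D2:**
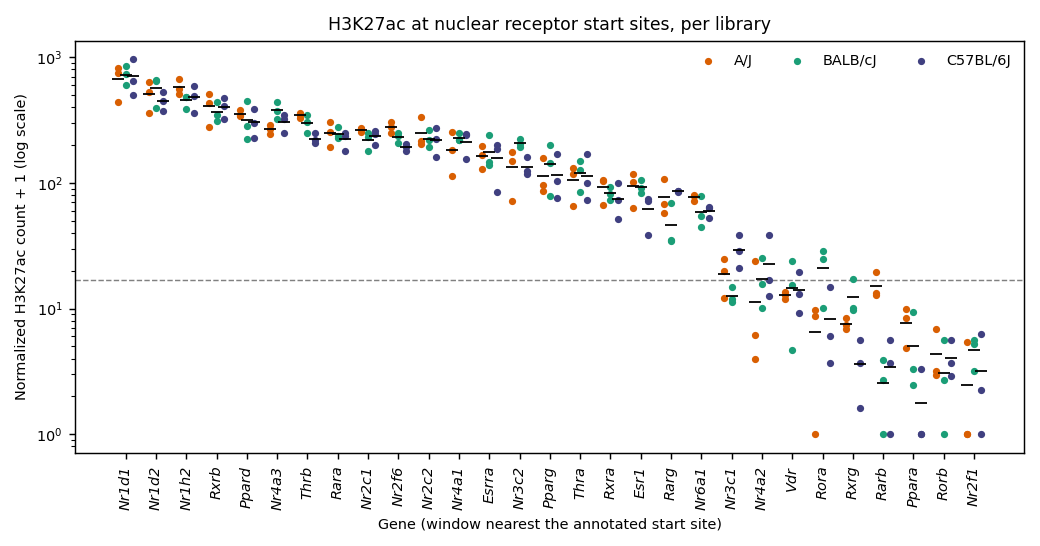
Normalized H3K27ac count plus 1 (log scale) in the window nearest the start site, for the 29 nuclear receptor genes with a window within 1000 bases. Each library is 1 point coloured by strain, and the dashed line marks the mean count of 16 needed for testing. *Nr1d1*, *Nr1d2* and *Nr1h2* are highest, and the points of the strains overlap at most genes.

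The most acetylated promoters belonged to the clock receptors. *Nr1d1* and *Nr1d2* encode REV-ERBα and REV-ERBβ, heme-binding repressors of the core circadian clock. The window 68 bases upstream of *Nr1d1* held normalized counts of 825, 436 and 751 in A/J, 844, 604 and 729 in BALB/cJ and 648, 498 and 959 in C57BL/6J, and its mean of 699 was above 99.7% of start-site windows. *Nr1d2* had 640, 356 and 530 in A/J, 658, 394 and 648 in BALB/cJ and 450, 375 and 528 in C57BL/6J. At both genes library 2 was the lowest of its strain and the strains overlapped, with log2 fold changes between −0.15 and 0.33. All 9 tested *Nr1d1* windows and all 5 of *Nr1d2* failed the test. *Rora*, which encodes an activator that competes with REV-ERB proteins for the same elements, was low, with 8.83, 0 and 7.76 in A/J, 23.6, 9.16 and 27.7 in BALB/cJ and 2.66, 14 and 5.04 in C57BL/6J. It was not tested, nor was *Rorb*, whose 2 windows had means of 2.84 and 5.47.

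Among sterol and bile acid receptors, *Nr1h2* and *Nr1h4* differed in kind. *Nr1h2* encodes LXRβ, an oxysterol receptor. Its promoter window held 507, 555 and 673 in A/J, 386, 485 and 484 in BALB/cJ and 358, 494 and 585 in C57BL/6J. The A/J values reached the highest level, the ranges of A/J and C57BL/6J overlapped, and no *Nr1h2* window passed. *Nr1h4* encodes FXR, the bile acid receptor, and its only window, 14366 bases upstream at chr10:89547488-89548488, is intergenic. There the counts were 39.8, 71.2 and 24.6 in A/J (45.2 ± 23.8, SD, n = 3), 49.8, 32 and 54.8 in BALB/cJ (45.5 ± 11.9, n = 3) and 2.66, 6.99 and 8.19 in C57BL/6J (5.95 ± 2.9, n = 3). All 6 A/J and BALB/cJ libraries were above all 3 C57BL/6J libraries, and A/J and BALB/cJ overlapped. The log2 fold change was 2.67 ± 0.47 (SE; 95% interval 1.69 to 3.65; adjusted p = 0.000314) for A/J over C57BL/6J and 2.88 ± 0.46 (1.92 to 3.83; adjusted p = 8.7e-05) for BALB/cJ over C57BL/6J. The difference between A/J and BALB/cJ was −0.21 (adjusted p = 0.884). An ATAC–seq peak of control cells was listed there for BALB/cJ alone. The inputs had 28.5 counts in the window in A/J, 13 in BALB/cJ and, for C57BL/6J, 5 (8.06, 4.73 and 8.57 per 1000000 input counts), so C57BL/6J reads were present in the input at this position. *Nr1h5*, *Nr1i2* (the xenobiotic receptor PXR) and *Nr1i3* (CAR) had no window within 1000 bases of a start. The highest *Nr1i2* window, 96438 bases downstream of the start, had a mean of 40.7, and the single windows of *Nr1i3* and *Nr1h5* had means of 9.36 and 5.49. That *Nr1i2* window was assigned by the nearest start site. The F1 region there is annotated to intron 7 of 11 of a different transcript from the one nearer the start.

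*Nr2c1* held the largest differences. It encodes TR2, an orphan receptor that represses genes through paired half-sites. Its promoter did not differ, with 266, 273 and 252 in A/J, 229, 179 and 250 in BALB/cJ and 257, 200 and 243 in C57BL/6J and log2 fold changes of 0.25, 0.16 and −0.09. The window 54281 bases upstream (chr10:94093150-94094150), inside intron 5 of the neighbouring gene *Fgd6*, held 10.3, 5.93 and 27.8 in A/J (14.7 ± 11.6, n = 3), 10.1, 4.58 and 12.4 in BALB/cJ (9.04 ± 4.03, n = 3) and 85.3, 86.2 and 116 in C57BL/6J (95.8 ± 17.4, n = 3). The lowest C57BL/6J library stood above every A/J and BALB/cJ library by over 3-fold. The log2 fold change was −2.50 ± 0.37 (95% interval −3.27 to −1.73; adjusted p = 3.3e-05) for A/J over C57BL/6J and −3.26 ± 0.40 (−4.08 to −2.43; adjusted p = 2.13e-06) for BALB/cJ over C57BL/6J. A control ATAC–seq peak was listed there for C57BL/6J alone, and the inputs had 22.5 counts in A/J, 18.5 in BALB/cJ and, for C57BL/6J, 5 (6.36, 6.73 and 8.57 per 1000000 input counts). The assignment to *Nr2c1* is by the nearest start site, and the window lies within *Fgd6*, which encodes a guanine nucleotide exchange factor.

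A pair of overlapping windows in intron 9 of *Fgd6*, 25663 and 25170 bases upstream of *Nr2c1*, were also higher in C57BL/6J. At 25663 bases the counts were 25.8, 32.6 and 25.2 in A/J, 18.6, 36.6 and 16.1 in BALB/cJ and 48, 39.6 and 57.3 in C57BL/6J, so that C57BL/6J lay above both other strains in all libraries. The log2 fold change of BALB/cJ over C57BL/6J was −1.19 ± 0.35 (adjusted p = 0.0258). At 25170 bases they were 28, 29.7 and 13.6 in A/J, 27, 32 and 16.8 in BALB/cJ and 53.3, 55.9 and 57.3 in C57BL/6J, with −1.31 ± 0.35 (adjusted p = 0.0166) for A/J and −1.20 ± 0.35 (adjusted p = 0.024) for BALB/cJ over C57BL/6J. Single libraries decided these calls. Without BALB/cJ library 1 or 3, or C57BL/6J library 1 or 3, the BALB/cJ difference did not pass at 25663 bases (−1.07, −0.96, −1.20 and −1.02, with adjusted p of 0.126, 0.181, 0.0685 and 0.177 in edgeR) nor at 25170 bases (−1.31, −0.94, −1.23 and −1.17, with 0.055, 0.181, 0.0628 and 0.108). The A/J difference at 25170 bases did not pass without A/J library 3 (−0.95, adjusted p = 0.172) or C57BL/6J library 3 (−1.28, adjusted p = 0.0897). The difference at 54281 bases passed in both comparisons without any single library. *Nr2c2*, which encodes the related receptor TR4, had 214, 335 and 202 in A/J, 219, 261 and 194 in BALB/cJ and 274, 221 and 159 in C57BL/6J at its promoter, and none of its 6 tested windows passed.

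The NR4A genes encode the immediate early receptors NUR77 (*Nr4a1*), NURR1 (*Nr4a2*) and NOR1 (*Nr4a3*), whose activity is set largely by how much of them is made. Their 25 tested windows gave 3 calls. *Nr4a1* had 13 of 15 windows lower in A/J than in C57BL/6J (median log2 fold change −0.52) and 12 of 15 lower in BALB/cJ than in C57BL/6J (median −0.31), many of which overlap. At its promoter the counts were 254, 113 and 182 in A/J, 248, 220 and 217 in BALB/cJ and 239, 154 and 242 in C57BL/6J, which overlapped. The differences lay upstream.

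At 14061 bases upstream of *Nr4a1* (chr15:101252285-101253285) the counts were 119, 142 and 164 in A/J (142 ± 22.9), 123, 133 and 103 in BALB/cJ (120 ± 15.2) and 243, 224 and 275 in C57BL/6J (247 ± 25.8, n = 3 each). All C57BL/6J libraries were above all others, and the log2 fold change was −1.06 ± 0.22 (adjusted p = 0.00154) for BALB/cJ and −0.81 ± 0.22 (adjusted p = 0.0183) for A/J over C57BL/6J, the latter under 2-fold. The centre of this window is 1117 bases from an upstream start of *Nr4a1* in RefSeq. The window at that upstream start, 12749 bases from the start the files use, was the most acetylated of the gene, with 301, 122 and 225 in A/J, 314, 220 and 223 in BALB/cJ and 380, 303 and 458 in C57BL/6J. It did not pass, with a log2 fold change of −0.78 ± 0.26 for A/J (adjusted p = 0.0668) and −0.60 ± 0.26 for BALB/cJ over C57BL/6J (adjusted p = 0.168). At 19485 bases upstream (chr15:101246861-101247861), where the ATAC–seq peak was found only in LPS-treated cells, the counts were 101, 71.2 and 91.2 in A/J (87.7 ± 15.1), 92.9, 96.1 and 58.4 in BALB/cJ (82.5 ± 20.9) and 156, 196 and 182 in C57BL/6J (178 ± 20.2). Again no C57BL/6J library overlapped another strain. The centre of this window is 6541 bases from the nearest RefSeq start of *Nr4a1*. The log2 fold change was −1.13 ± 0.25 (adjusted p = 0.0026) for BALB/cJ and −0.98 ± 0.24 (adjusted p = 0.00935) for A/J over C57BL/6J. Both BALB/cJ calls sat at the 2-fold limit. Without BALB/cJ library 3 they were −0.96 (adjusted p = 0.0186) at 14061 bases and −0.91 (adjusted p = 0.0399) at 19485 bases, and without C57BL/6J library 3 the former was −0.98 (adjusted p = 0.0143), each still under the adjusted p of 0.05 but short of 2-fold.

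*Nr4a2* was the one gene called between A/J and BALB/cJ. The window 1765 bases upstream (chr2:57116303-57117303), inside intron 1 of a longer transcript of the gene, held 24.3, 11.9 and 16.2 in A/J (17.4 ± 6.31), 87, 59.5 and 54 in BALB/cJ (66.8 ± 17.6) and 58.6, 16.3 and 27.7 in C57BL/6J (34.2 ± 21.9, n = 3 each). Every BALB/cJ library was above every A/J library, and C57BL/6J reached into both ranges. A/J differed from BALB/cJ by −1.84 ± 0.38 on the log2 scale (95% interval −2.62 to −1.06; adjusted p = 0.00324), beside −0.90 (adjusted p = 0.203) for A/J over C57BL/6J and 0.94 (adjusted p = 0.0998) for BALB/cJ over C57BL/6J. All 4 tested *Nr4a2* windows were lower in A/J than in BALB/cJ, with a median of −1.08. The window 187 bases upstream of the start of the longer transcript held 58.9, 23.7 and 32.3 in A/J, 100, 82.4 and 65.7 in BALB/cJ and 85.3, 55.9 and 56.1 in C57BL/6J, and its A/J over BALB/cJ difference was −1.02 (adjusted p = 0.0655), or −1.04 (adjusted p = 0.00158) with the replicate block. The window 1092 bases upstream of the shorter transcript likewise went from −1.13 (adjusted p = 0.17) to −1.07 (adjusted p = 0.0313). At the start of the shorter transcript the mark was too low to test, at 2.97 to 22.8 in A/J, 9.16 to 24.5 in BALB/cJ and 11.6 to 37.3 in C57BL/6J. *Nr4a3* was strongly marked, with 287, 243 and 269 in A/J, 371, 320 and 443 in BALB/cJ and 320, 247 and 346 in C57BL/6J at its start and a mean of 464 at its highest window, 1952 bases upstream. All A/J values at the start were below all BALB/cJ values, but the log2 fold change of −0.50 ± 0.22 did not pass (adjusted p = 0.27).

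**Figure D3:**
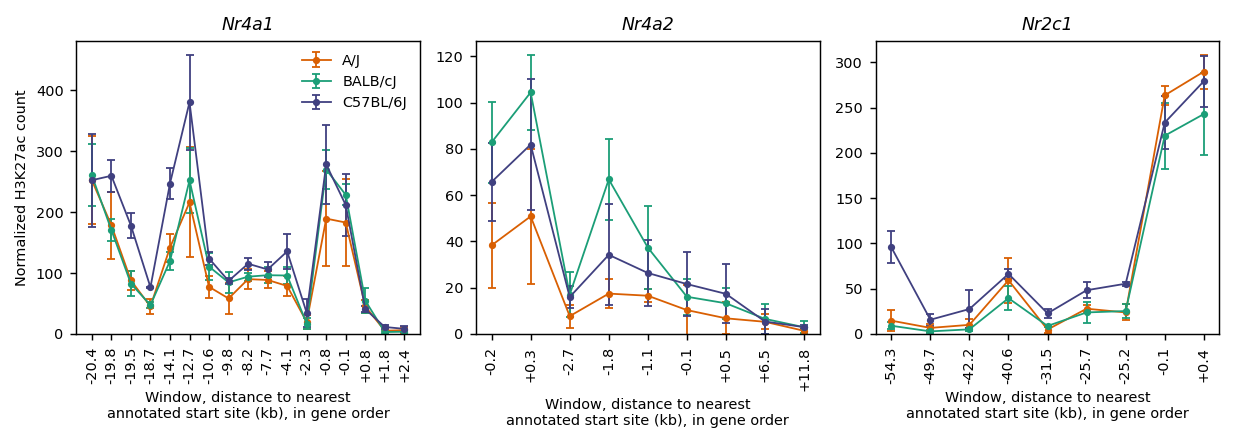
Mean normalized H3K27ac count with SD (n = 3 libraries per strain) in windows of *Nr4a1*, *Nr4a2* and *Nr2c1* placed in gene order, each labelled with its distance to the nearest annotated start site in kb. C57BL/6J is above the other strains at the called *Nr4a1* and *Nr2c1* windows and overlaps them at the starts the files use, while BALB/cJ is above A/J along *Nr4a2*.

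Steroid receptors gave 1 call in 43 tested windows. *Nr3c1* encodes the glucocorticoid receptor and had 55 windows, of which 35 were tested. The start the files use for *Nr3c1* was weakly marked, with 11, 23.7 and 18.8 in A/J, 11, 13.7 and 10.2 in BALB/cJ and 20, 37.3 and 27.7 in C57BL/6J. RefSeq also places *Nr3c1* starts 154 bases from the window 2719 bases further upstream, which held 382, 522 and 346 in A/J, 345, 398 and 341 in BALB/cJ and 372, 345 and 288 in C57BL/6J. That window is the highest of the gene and its log2 fold changes were 0.19, 0.31 and 0.11, none of which passed. At the start used by the files, BALB/cJ was below C57BL/6J in all libraries by −1.29 ± 0.43 on the log2 scale, with an adjusted p of 0.0525, or −1.23 with an adjusted p of 0.0168 with the replicate block. Near another upstream start, 32413 bases from the file's start, the counts were 62.6, 77.1 and 88.6 in A/J, 73.5, 57.2 and 74.5 in BALB/cJ and 115, 102 and 143 in C57BL/6J. C57BL/6J was above all other libraries there, with −0.81 ± 0.25 for BALB/cJ over C57BL/6J (adjusted p = 0.0338), under 2-fold.

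The called *Nr3c1* window is intergenic, 132730 bases upstream of the start the files use and 100554 bases from the nearest RefSeq start (chr18:39619475-39620475). It held 27.2, 38.6 and 18.8 in A/J (28.2 ± 9.94), 57.4, 45.8 and 44.5 in BALB/cJ (49.2 ± 7.1) and 48, 46.6 and 86.3 in C57BL/6J (60.3 ± 22.5, n = 3 each). A/J was below both other strains in all libraries, and the log2 fold change over C57BL/6J was −1.28 ± 0.33 (adjusted p = 0.0137). The call rested on A/J library 3 and C57BL/6J library 3, without which it was −1.003 (adjusted p = 0.138) and −0.86 (adjusted p = 0.268). Of the window 73684 bases upstream, the BALB/cJ over C57BL/6J difference passed only with the replicate block (1.13, adjusted p = 0.0244, against 1.15 and 0.073 without it). *Nr3c2*, the mineralocorticoid receptor gene, had 176, 71.2 and 148 in A/J, 203, 192 and 224 in BALB/cJ and 116, 158 and 123 in C57BL/6J at its promoter, and BALB/cJ exceeded all other libraries without passing (−0.59, adjusted p = 0.259, and 0.66, adjusted p = 0.105). *Esr1*, the estrogen receptor α gene, had all 5 tested windows above C57BL/6J in both other strains (A/J and BALB/cJ), with medians of 0.65 and 0.57. None passed with edgeR or DESeq2, and the unadjusted p was under 0.05 at 3 of them.

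Thyroid hormone and vitamin D receptors gave 1 call in 35 tested windows. *Thrb* encodes thyroid hormone receptor β, and its promoter held 328, 344 and 357 in A/J, 251, 304 and 345 in BALB/cJ and 205, 247 and 217 in C57BL/6J. A/J was above C57BL/6J in all libraries, with a log2 fold change of 0.63 ± 0.21 that did not pass (adjusted p = 0.0708). A neighbouring window, 854 bases upstream, held 197, 273 and 292 in A/J against 147, 133 and 169 in C57BL/6J, a difference of 0.75 ± 0.23 (adjusted p = 0.0418), under 2-fold. In intron 2, 77146 bases upstream of the start the files use and 11191 bases from the nearest RefSeq start (chr14:17903998-17904998), the direction was the other one. There C57BL/6J held 38.6, 46.6 and 47.9 (44.4 ± 4.99), BALB/cJ 16, 27.5 and 23.4 (22.3 ± 5.79) and A/J 21.3, 26.7 and 24.6 (24.2 ± 2.69, n = 3 each), with no overlap between C57BL/6J and the others. The log2 fold change of BALB/cJ over C57BL/6J was −1.04 ± 0.33 with an adjusted p of 0.0443, next to both limits. The call did not pass without A/J library 3, BALB/cJ library 1 or 3 or any 1 C57BL/6J library, of which the values farthest from the limit were −0.83 (adjusted p = 0.221) without BALB/cJ library 1 and −0.96 (adjusted p = 0.188) without C57BL/6J library 3. It also did not pass with DESeq2 (−1.05, adjusted p = 0.063) or, in edgeR, without the filter on low counts (−1.04, adjusted p = 0.0556). The window 81755 bases upstream passed for A/J over C57BL/6J only with the replicate block (−1.19, adjusted p = 0.0119, against −1.30 and 0.0791).

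*Thra* encodes thyroid hormone receptor α and overlaps *Nr1d1* on the opposite strand. Its promoter counts overlapped, at 64 to 131 in A/J, 83.2 to 149 in BALB/cJ and 72.2 to 168 in C57BL/6J. All 6 tested *Thra* windows were lower in A/J than in C57BL/6J, with a median of −0.65. At the highest one, 12424 bases downstream of the start, A/J held 136, 128 and 110, BALB/cJ 150, 156 and 157 and C57BL/6J 179, 224 and 212, so the strains did not overlap. Its log2 fold change for A/J over C57BL/6J was −0.72 ± 0.21 (adjusted p = 0.0356), under 2-fold. *Vdr*, the vitamin D receptor gene, was weakly marked at its start, with 12.5, 11.9 and 11 in A/J, 14.4, 22.9 and 3.65 in BALB/cJ and 12, 18.6 and 8.19 in C57BL/6J, and none of its 3 tested windows passed.

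Retinoid receptors gave no call. *Rxra* encodes RXRα, the common heterodimer partner, and had the most windows, 60 with 52 tested, most of them distal. At its promoter the counts were 103, 104 and 66 in A/J, 81.1, 91.6 and 72.3 in BALB/cJ and 98.6, 72.2 and 50.4 in C57BL/6J. Its highest window, at the end of the gene and 52132 bases downstream of the start, held 332, 285 and 321 in A/J, 279, 275 and 319 in BALB/cJ and 265, 268 and 334 in C57BL/6J. The strains overlapped at both. Over the 52 windows, 46 exceeded C57BL/6J in A/J and 48 did so in BALB/cJ, with median log2 fold changes of 0.29 and 0.19 and intervals within 2-fold at 39 and 44 of them. Unadjusted p was under 0.05 at 3 of the 52 in each of those comparisons and at 0 in A/J against BALB/cJ (edgeR). These windows share reads and are given as a description. *Rxrb*, the RXRβ gene, held 506, 433 and 276 in A/J, 436, 343 and 310 in BALB/cJ and 474, 324 and 406 in C57BL/6J at its promoter. The window 948 bases downstream of the start held 85.3, 91.6 and 92 in BALB/cJ against 199, 119 and 159 in C57BL/6J, a log2 difference of −0.84 ± 0.25 (adjusted p = 0.0322) and under 2-fold. *Rxrg*, known mainly from muscle and brain, had 3 windows with means up to 6.85, and none was tested.

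Retinoic acid receptors followed. *Rara* (RARα) held 305, 252 and 193 in A/J, 277, 233 and 225 in BALB/cJ and 249, 177 and 237 in C57BL/6J at its promoter, and none of its 17 tested windows passed. *Rarg* (RARγ) was lowest in BALB/cJ. Its window 945 bases upstream held 279, 279 and 208 in A/J (255 ± 40.8), 160, 128 and 104 in BALB/cJ (131 ± 28.1) and 289, 184 and 224 in C57BL/6J (232 ± 53.1, n = 3 each), with BALB/cJ below all other libraries. The log2 fold change was 0.95 ± 0.24 (adjusted p = 0.0166) for A/J over BALB/cJ and −0.83 ± 0.24 (adjusted p = 0.021) for BALB/cJ over C57BL/6J, both under 2-fold. At 155 bases downstream of the start the counts were 56.7, 107 and 66.6 in A/J, 33.8, 68.7 and 34.3 in BALB/cJ and 85.3, 83.8 and 85.7 in C57BL/6J, and BALB/cJ over C57BL/6J was −0.998 ± 0.30 on the log2 scale (adjusted p = 0.0335), just short of 2-fold, and −1.05 (adjusted p = 0.000742) with the replicate block. The window 2929 bases downstream passed for A/J over BALB/cJ with the block (1.08, adjusted p = 0.047) and not without it (0.94, adjusted p = 0.502). *Rarb* (RARβ) was too low to test in all 9 windows. At its start the A/J libraries held 18.4, 11.9 and 12.3 and the other 6 libraries 0 to 4.66, which is given without a test.

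Peroxisome proliferator-activated receptors, sensors of fatty acids, gave no call in 26 tested windows. *Ppard* (PPARδ) held 376, 338 and 343 in A/J, 282, 224 and 445 in BALB/cJ and 300, 226 and 389 in C57BL/6J at its promoter. *Pparg* (PPARγ) held 158, 94.9 and 85.4 in A/J, 199, 77.8 and 142 in BALB/cJ and 168, 74.5 and 103 in C57BL/6J. All strains overlapped at both promoters, and the log2 fold changes lay between −0.33 and 0.30. The highest *Pparg* window, 58417 bases downstream of the start, held 232, 249 and 267 in A/J, 217, 211 and 231 in BALB/cJ and 201, 205 and 222 in C57BL/6J. A/J was above all other libraries there, and the window did not pass. *Ppara* (PPARα), known from hepatocytes, had 1 window with a mean of 3.85.

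The remaining orphan receptors showed no call either. *Nr2f6*, which encodes EAR2, held 280, 303 and 248 in A/J, 247, 206 and 234 in BALB/cJ and 201, 193 and 179 in C57BL/6J at its promoter. C57BL/6J was below all other libraries, and A/J exceeded it by 0.53 ± 0.21 on the log2 scale, which did not pass (adjusted p = 0.131). *Nr2f1*, the COUP-TFI gene, was near 0 at its start (mean 2.44) while a window 37977 bases upstream, at the end of a neighbouring non-coding transcript, had a mean of 95.6 and log2 fold changes of 0.11, −0.02 and −0.13. *Esrra*, the gene of the estrogen-related receptor α that drives mitochondrial genes, held 196, 166 and 129 in A/J, 240, 137 and 146 in BALB/cJ and 187, 83.8 and 198 in C57BL/6J. Its 4 tested windows all had intervals within 2-fold in all 3 comparisons. *Nr6a1*, the germ cell nuclear factor gene, had a mean of 64.4 at its start and no call in 3 tested windows.

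**Figure D4:**
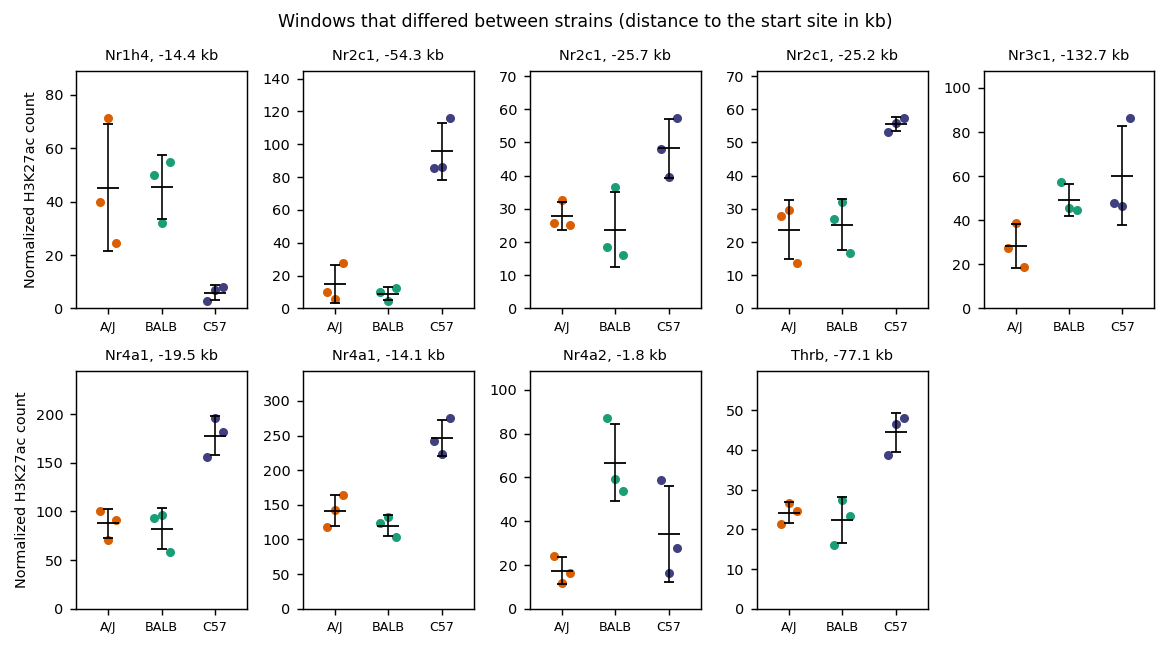
Normalized H3K27ac count of each of the 3 libraries per strain (points) at the 9 windows called in at least 1 strain comparison, 1 panel per window, titled with the gene and the distance to its start site in kb. C57BL/6J is the highest strain at 7 of the panels, BALB/cJ at *Nr4a2*, and C57BL/6J is the lowest at *Nr1h4*.

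In CB6F1/J Kupffer cells few nuclear receptor regions carried allelic information. Of 835 regions at 38 genes, 95 had any allelic count (11.4%, against 19.1% of all 217456 regions) and 8 had enough to be tested, at *Nr2c1*, *Nr4a1*, *Rxrb* and *Thrb*. Of these 8, 0 passed, against 6.54% of the 4467 regions tested; the unadjusted p was under 0.05 at 0 of 8 with edgeR, and DESeq2 also called 0. Allelic counts come in steps of 0.5. The regions are listed with a span of 200 bp, but the study describes counting over a wider window, so neighbouring regions may share reads. Over all regions the BALB/cJ allele had 48.8% of the allelic counts.

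At the *Nr2c1* promoter region, 40 bases upstream, the BALB/cJ allele had counts of 15, 44.5 and 28 in the 3 libraries and the C57BL/6J allele 12, 63.5 and 32. The allelic log2 fold change was −0.23 ± 0.44 (95% interval −1.15 to 0.69). The region 392 bases downstream had 12.5, 78.5 and 42 against 22, 79.5 and 89.5, or −0.57 ± 0.42 (−1.45 to 0.31). Summed over the promoter window, the BALB/cJ allele held 42.5% (38.1% to 46.8%), beside 48.5% in the strains. Over all *Nr2c1* regions it had 335 counts and the C57BL/6J allele 594.5. Reads may be counted again in both sums, and the interval covers counting error only. The *Rxrb* promoter region had 19, 79.5 and 40 against 13.5, 79.5 and 45, or 0.04 ± 0.41. The alleles overlapped over libraries. At 14059 bases upstream of *Nr4a1* the BALB/cJ allele had 14, 45.5 and 17 and the C57BL/6J allele 13.5, 29.5 and 32, a log2 fold change of −0.01 ± 0.45 (−0.96 to 0.94), where the strains differed by −1.06. The test of strain against allele difference at this window gave −1.11 ± 0.44 with an unadjusted p of 0.0178 and an adjusted p of 0.242 in edgeR, so the strain and allele differences were not shown to differ. Of 5 nuclear receptor windows with enough counts for that test 0 passed with edgeR or DESeq2, beside 2.84% of 3869 windows, and the unadjusted p was under 0.05 at 2. The other of these was a *Thrb* window 79246 bases upstream, where the BALB/cJ allele had 22, 64.5 and 31.5 counts and the C57BL/6J allele 9.5, 14.5 and 51.5. Library 3 was opposite to the others there. The strain difference was −0.46, the test of strain against allele difference gave −1.09 ± 0.53 (adjusted p = 0.396), and without CB6F1/J library 3 it gave −2.25 ± 0.51 (adjusted p = 0.0137). At 19080 bases upstream of *Nr4a1* the alleles had 7.5, 16.5 and 15 against 17.5, 39.5 and 12.5, or −0.79 ± 0.53 (−1.89 to 0.32). The region 20774 bases upstream leaned the other way, with 32, 89 and 41.5 against 27, 34 and 43.5, or 0.57 ± 0.36 (−0.18 to 1.32). In the window around it the BALB/cJ allele held 62% of the summed counts, beside 50.6% in the strains. At 13384 bases upstream the alleles had 4.5, 69.5 and 20 against 16, 59.5 and 53, or −0.54 ± 0.53.

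The distal *Nr2c1* windows had too few allelic counts for the test. In the window 54281 bases upstream the BALB/cJ allele had 3.5, 2 and 2 counts and the C57BL/6J allele 9, 22 and 9, so the BALB/cJ allele was lower in 3 of 3 libraries and held 15.8% of the counts (exact Clopper–Pearson 95% interval 7.48% to 30.2%). In the strains the BALB/cJ level was 9.48% of the sum of BALB/cJ and C57BL/6J. The overlapping windows 25663 and 25170 bases upstream held the same 2 regions, with 3.5, 10.5 and 2.5 BALB/cJ against 11.5, 16 and 8.5 C57BL/6J counts in one and 2.5, 6.5 and 8 against 0, 14.5 and 7.5 in the other. The BALB/cJ share of their sum was 36.6% (27.1% to 47.7%), beside 30.4% and 30.3% in the strains; reads that both regions hold would be counted again in this sum, and its interval would be too narrow. The intervals cover counting error only. At the *Nr4a1* window 14061 bases upstream the BALB/cJ allele held 50.5% (41.8% to 58.2%) of the allelic counts and BALB/cJ 32.3% in the strains, and at 19485 bases upstream the values were 35.9% (27.1% to 45.9%) and 31.4%. The *Thrb* window 77146 bases upstream had 4.5 and 4 allelic counts in all. No allelic count was present at the called *Nr4a2* and *Nr3c1* windows, and the *Nr1h4* window had no F1 region.

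**Figure D5:**
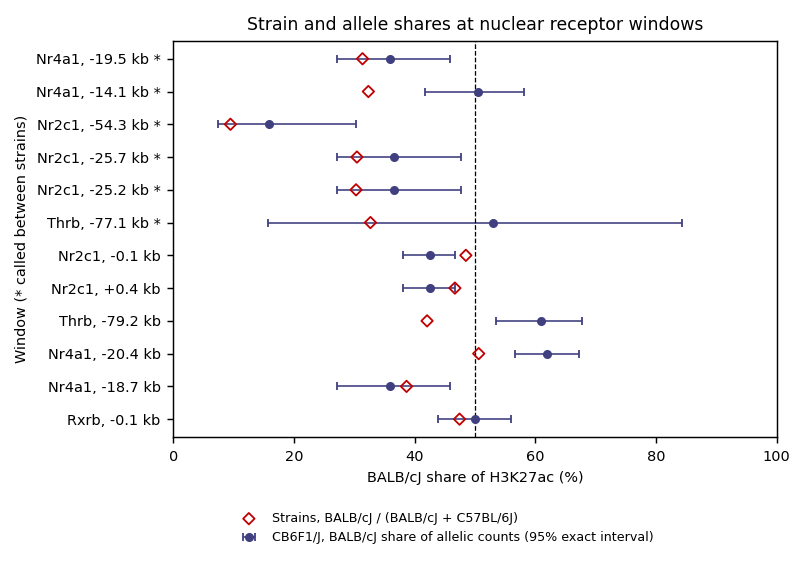
Share of BALB/cJ in H3K27ac at nuclear receptor windows with allelic counts, in percent. Filled points are the BALB/cJ allele in CB6F1/J with exact 95% intervals and open diamonds the share in the strains; windows with several F1 regions show their sum, in which reads may be counted more than once. At the *Nr2c1* window 54.3 kb upstream both lie far below 50%, at 15.8% and 9.48%, and at the *Nr4a1* window 14.1 kb upstream the allele share is 50.5% and the strain share 32.3%.

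Genes that work with the receptors were counted from 6 lists. Over 25 coregulator genes with windows, 206 windows were tested and 2, 6 and 8 passed in A/J against BALB/cJ, A/J against C57BL/6J and BALB/cJ against C57BL/6J, which are 0.971%, 2.91% and 3.88% of them. Here too the percentages were below those of all windows (3.63%, 7.09% and 8.56%). *Nrip1*, which encodes the corepressor RIP140, was lowest in BALB/cJ 8288 bases downstream of its start (46.9 ± 10.9, beside 115 ± 30.5 in A/J and 98.5 ± 13.8 in C57BL/6J). The log2 fold change was 1.23 ± 0.27 for A/J over BALB/cJ (adjusted p = 0.00594) and −1.03 ± 0.27 for BALB/cJ over C57BL/6J (adjusted p = 0.0132). At *Ncoa2*, a coactivator of the p160 family, an intronic window 116056 bases downstream held 40.3 ± 5.55 in C57BL/6J but 8.22 ± 2.19 in A/J and 8.5 ± 4.54 in BALB/cJ, or −2.16 ± 0.42 for A/J (adjusted p = 0.000816) and −2.41 ± 0.43 for BALB/cJ (adjusted p = 0.000338) over C57BL/6J. Windows upstream of *Ncoa3* and *Ep300* had higher means in C57BL/6J than in both other strains. At *Ncoa3*, 5496 bases upstream, the log2 fold change over C57BL/6J was −1.05 for A/J (adjusted p = 0.0062) and −0.96 for BALB/cJ (adjusted p = 0.0107), the latter under 2-fold. At *Ep300*, 51534 bases upstream, it was −0.98 for A/J (adjusted p = 0.0336), under 2-fold, and −1.26 for BALB/cJ (adjusted p = 0.00483).

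The glucocorticoid receptor list, chaperones and known target genes, had 210 tested windows. In A/J against BALB/cJ 1 was higher and 18 were lower in A/J (9.05%), in A/J against C57BL/6J 2 were higher and 14 lower (7.62%), and in BALB/cJ against C57BL/6J 3 were higher and 3 lower (2.86%, or 10 calls with the replicate block). Of all windows, 3.63%, 7.09% and 8.56% passed in these comparisons, and 10.5% in the last with the block. The lower A/J windows included those of *Dusp1*, a phosphatase that dampens MAP kinases, and *Klf9*, a Krüppel-like factor. The *Dusp1* window 43263 bases from the start held 15.2 ± 13.7 in A/J, where BALB/cJ had 205 ± 31.2 and C57BL/6J 232 ± 27, with log2 fold changes of −3.42 ± 0.35 (adjusted p = 4.41e-07) and −3.59 ± 0.35 (adjusted p = 8.38e-08). At *Klf9*, 877 bases downstream of the start, the values were 52.8 ± 15.3, 203 ± 19.2 and 233 ± 19, or −1.87 ± 0.24 (adjusted p = 8.13e-06) and −2.06 ± 0.24 (adjusted p = 7.62e-07). The medians over the list were −0.09, −0.06 and 0.08. *Klf4*, another Krüppel-like factor, was lower in BALB/cJ than in C57BL/6J 526658 bases upstream (30.3 ± 10.1 against 103 ± 17.4; −1.79 ± 0.29, adjusted p = 9.59e-05).

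The list of vitamin D and thyroid hormone genes, in which *Klf9* also stands, had 58 tested windows. Of these, 1 was higher and 9 were lower in A/J than in BALB/cJ, and 10 were lower than in C57BL/6J (17.2% each, against 3.63% and 7.09% of all windows), while BALB/cJ and C57BL/6J differed at 2 (3.45%, against 8.56%, or 3 calls with the block, against 10.5%). The windows of lowest adjusted p against A/J were all of *Klf9*. Some of them overlap (6946 with 6577 bases upstream, and 877 with 1501 bases downstream), so they are not separate evidence. The *Klf9* windows were also counted in the glucocorticoid receptor list. *Thrap3*, a mediator-associated protein gene, was lower in BALB/cJ than in C57BL/6J 1104 bases downstream of its start (10.9 ± 1.5 against 36.2 ± 11.5; −1.74 ± 0.39, adjusted p = 0.00313), and *Slc16a10*, a transporter gene, was higher by 1.35 ± 0.40 (adjusted p = 0.0296).

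Among 100 tested windows of genes controlled by PPARs, 13 were higher and 0 lower in BALB/cJ than in C57BL/6J (13.0%, against 8.56% of all windows). In A/J 1 was higher and 4 were lower than in BALB/cJ (5.00%, against 3.63%, or 9 calls with the block, against 5.39%), and 3 were higher and 4 lower than in C57BL/6J (7.00%, against 7.09%). The A/J against BALB/cJ calls made without the block were all at *Acadl*. The lower ones among them overlap in a chain, so they are not separate evidence. *Plin2*, the lipid droplet protein gene, held 327 ± 91.3 in BALB/cJ, 234 ± 53.4 in A/J and 125 ± 24.8 in C57BL/6J 19620 bases upstream, and BALB/cJ exceeded C57BL/6J by 1.43 ± 0.25 (adjusted p = 0.000213). *Angptl4*, an inhibitor of lipoprotein lipase, did so by 1.76 ± 0.33 (118 ± 23.9 against 39.5 ± 28.5; adjusted p = 0.000645) 870 bases downstream, and *Pdk4*, a kinase that restrains glucose oxidation, by 2.39 ± 0.52 (adjusted p = 0.00265) at its promoter, from low counts of 30.1 ± 6.49 and 6.61 ± 3.6. At *Acadl*, the long-chain acyl-CoA dehydrogenase gene, the promoter window 604 bases upstream was lower in A/J, with 44.2 ± 16.8, 130 ± 37.9 and 149 ± 24.9 and log2 fold changes of −1.48 ± 0.28 (adjusted p = 0.00123) and −1.66 ± 0.28 (adjusted p = 0.000159), while an intronic window 3638 bases downstream was higher in A/J than in C57BL/6J by 2.03 ± 0.42 (adjusted p = 0.00171).

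Retinoid metabolism and clock genes gave few calls outside single loci. Of 89 tested windows of retinoid genes, 1, 2 and 7 passed (1.12%, 2.25% and 7.87%, against 3.63%, 7.09% and 8.56% of all windows). With the block, 5 passed in A/J against C57BL/6J, beside 8.91% of all windows. A window 124798 bases downstream of *Dhrs3*, a retinaldehyde reductase gene, was higher in BALB/cJ than in C57BL/6J (60.9 ± 10.8 against 20.8 ± 5.16, or 1.58 ± 0.31, adjusted p = 0.000987). It lies in intron 66 of a transcript with 69 introns, and its assignment to *Dhrs3* is by the nearest start site. Called windows 126287 and 132199 bases downstream lie in the same transcript. *Rdh10*, a retinol dehydrogenase gene, was lower in A/J than in C57BL/6J by −1.12 ± 0.27 (adjusted p = 0.00761), and *Hic1*, a repressor gene, was lower in BALB/cJ than in C57BL/6J at its promoter by −1.16 ± 0.28 (adjusted p = 0.00753). Of 86 tested clock windows, 3, 3 and 5 passed (3.49%, 3.49% and 5.81%, each below the share of all windows; 5 in A/J against C57BL/6J with the block), and those named by the rule belonged to *Bhlhe41* and *Usp2*. *Bhlhe41*, the gene of the clock repressor DEC2, held 123 ± 45.4, 462 ± 124 and 53.4 ± 27 at its promoter, highest in BALB/cJ, with −1.86 ± 0.30 for A/J over BALB/cJ (adjusted p = 0.00028), 1.16 ± 0.32 for A/J over C57BL/6J (adjusted p = 0.0232) and 3.01 ± 0.32 for BALB/cJ over C57BL/6J (adjusted p = 4.77e-07). *Usp2*, a deubiquitinase gene, was higher in A/J (1.35 ± 0.33, adjusted p = 0.00867) and BALB/cJ (1.26 ± 0.33, adjusted p = 0.0126) than in C57BL/6J.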

How the data were processed

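H3K27ac ChIP–seq and ChIP input libraries of Kupffer cells were analysed from control mice, both inbred (A/J, BALB/cJ, C57BL/6J) and hybrid (CB6F1/J). The authors aligned reads with Bowtie2 to each strain's genome, shifted them to mm10 coordinates with MMARGE and counted them with HOMER in 1000-bp windows around merged ATAC–seq peaks of control and LPS-treated cells; tool versions are not given in the sources used here. The deposited strain table holds whole-number counts for libraries 1 and 3, and expected counts in steps of 0.5 for library 2 and the inputs. The deposited F1 table, also expected counts in steps of 0.5, gives reads that carry a BALB/cJ or C57BL/6J variant in regions listed with a span of 200 bp; the authors describe a 1000-bp window for this step, so neighbouring regions may share reads. Another 6 columns of per-sample values were not used, and CB6F1/J inputs were not analysed here.

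Values were rounded to whole numbers, scaled by TMM and tested with edgeR 4.0.16 (quasi-likelihood, robust; R 4.3.3) over all windows or autosomal F1 regions with a mean normalized count above 16. Calls needed an adjusted p (Benjamini–Hochberg) below 0.05 together with a log2 fold change beyond 1 in either direction. One fit held all 9 strain libraries, another the 6 allele columns, and a further one both, to test the strain difference against the allele difference. Errors of fold changes are standard errors from the fit. Strain libraries held 2291426 to 12980348 counts, and F1 allele columns 182654 to 400681, which limits the allelic precision. On simulated counts for 60387 windows (A/J against BALB/cJ), 95.9% of 4-fold and 100% of 8-fold changes were called, and for 4467 F1 regions (alleles of CB6F1/J) 87.3% and 99.0%. The simulation gave all windows the same spread and had no effect of replicate number. It held no change smaller than 4-fold, so it does not give the recovery of changes near 2-fold.

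Groups were taken from the titles. Same-numbered strain libraries deviated together from their strain means (r of 0.227 to 0.414 over 9 pairs, against −0.317 to 0.0629 over 18 pairs of different number), so fits with the replicate number, or in CB6F1/J the library (r of 0.168 to 0.182), as a block were made. Alternatives were DESeq2 1.42.0, DESeq2 size factors, no filter, the block and leaving out libraries. Per-library values are named for called windows and for promoters of receptors expressed in macrophages, and for pathway genes the called windows of lowest adjusted p, up to 4 per list and comparison. Windows just under 2-fold, the highest windows and windows at further RefSeq starts were chosen after their values were seen. The members, gene lists and cell type markers were chosen with earlier results of these data known. Annotations and distances are the deposited ones. The distance matched a start of the same gene in RefSeq (GRCm38.p6) within 100 bases at 82.5% of member windows. A result at 1 pathway gene named by this rule is not reported here.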

Additional observations from a re-analysis of the deposited data

How the results depend on the processing

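The counts of called nuclear receptor windows moved with the processing, in A/J against BALB/cJ from 1 to 4 without the filter, to 4 with the replicate block and to 4 without library 2 of every strain; in A/J against C57BL/6J from 4 to 7 without library 2 of every strain; and in BALB/cJ against C57BL/6J from 7 to 11 without the filter and to 14 without library 2 of every strain (that exclusion was chosen after seeing the data). Leaving out 1 library gave 1 to 3, 2 to 8 (2 without A/J library 3 or C57BL/6J library 3, 8 without A/J library 1) and 2 to 11 (2 without BALB/cJ library 3, 3 without C57BL/6J library 3, 11 without BALB/cJ library 2). The block gave 5 and 10 in the last comparisons and ended no call. The allelic count was 0 under every alternative run, and the count for strain against allele difference was 0, or 0 to 1 with 1 library left out. Over the pathway lists together, 31, 35 and 41 windows were called; without library 2 of every strain the count was 57 in A/J against C57BL/6J, and leaving out 1 library gave 18 to 33, 24 to 54 and 19 to 49, with 18 without BALB/cJ library 3, 54 without C57BL/6J library 2, and 19 and 24 without C57BL/6J library 3 and BALB/cJ library 3. For single windows, 1420 of 1470 values under alternatives kept their direction and their side of the threshold, 23 lost and 27 gained a call, and 0 reversed. The cause of these shifts was not tested. TMM and DESeq2 size factors gave medians over all windows within 0.01 of each other on the log2 scale. Of 835 F1 regions 740 had no allelic count and 8 had enough to be tested, so the allelic results cover few of the genes.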
